A study of Mus musculus with 6 samples.

Results

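The Wnt ligands, their Frizzled and Lrp receptors, the secreted Wnt antagonists and a pair of nuclear genes of the pathway were measured in mouse dermal fibroblasts treated with 5-aza-2'-deoxycytidine, a drug that removes DNA methylation. Members were the genes whose symbol is Wnt, Fzd, Sfrp or Dkk with a number, together with Wif1, Lrp5, Lrp6, Axin2 and Lef1, each read at its brightest probe set. This gave 42 of 18193 named genes: 19 ligands, 12 receptors, 9 secreted antagonists, and Axin2 and Lef1. They had 81 probe sets in all and lay on 14 chromosomes, with 0 of the 42 on the X chromosome. Tcf7 was not analysed here. A probe set was tested when its mean signal over the 6 arrays was at least 67.7, and 30 members passed: 11 ligands, 11 receptors, 6 antagonists, Axin2 and Lef1.

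The cells were explant cultures from the dermis of newborn mice, 0 to 2 days old, taken at passage 4. Their X-linked GFP transgene was driven by a chicken β-actin promoter with a CMV enhancer; transgenic males of a mixed 129/ICR background had been crossed to BL6 females, and the strain label reads B6. All 3 groups began with cells sorted as not expressing GFP. Female cells of this kind hold the transgene on the inactive X chromosome. Control cells had no drug and no second sort. The GFP-negative and GFP-positive groups received 4 µM drug for 48 h and had 24 h of recovery, and were then sorted apart by GFP, so the drug and the second sort cannot be told apart in a comparison with control. Each group had 2 arrays of total RNA, called biological replicates 1 and 2; the labels do not say that they were separate cultures or animals, so the p-values reflect only the spread among these arrays, which may be technical. Control replicate 2 is labelled as of mixed gender and the other arrays as female, so that array may include male cells, which have no inactive X chromosome. The part of this difference in the comparisons with control was not tested.

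Signals are Affymetrix signal values with every array brought to the same trimmed mean of 500. GFP-negative replicate 2 and GFP-positive replicate 2 were deposited at a lower scale and were multiplied by 8.06 and 9.90. The lower quartile of the scaled signals differed by number: it was 38.7 to 42.5 for replicate 1 and 19.2 to 22.6 for replicate 2. Dim members therefore often stood lower on all replicate 2 arrays, and differences are also given within each replicate number. With 2 arrays in a group, the number of arrays limits the precision. The fibroblast marker list, with 8 of 9 genes measured, summed to 164960 and 168487 in control and to 127064 to 138672 in the treated arrays; Vim, the mesenchymal filament vimentin, stood at 36593 to 53040 on all arrays. Within that list Dcn read 12515.7 and 2956.9 in control and 202.9 to 2720.4 in treated arrays, Lum 2319.8 and 934.4 against 51.6 to 291.0, and Pdgfra 2180.4 and 1066.5 against 295.1 to 1202.6. The skeletal muscle list (5 of 5 genes measured) summed to 4441 and 9395 in control and to 12671 to 16343 in treated arrays. Of the treated sums, Acta1 alone made up 12255.5 to 16264.1. Among the regulators on that list, Myf5 was at 0.8 to 54.7 on all arrays. Myod1 read 68.2 and 137.3 in control and 14.5 to 141.1 in treated arrays. The adipocyte list (4 of 5) summed to 3655 and 2500 against 1401 to 1866, and the leukocyte list (6 of 6) to 949 and 778 against 1080 to 1362. Keratinocyte, melanocyte, endothelial, Schwann and dermal papilla lists summed to between 158 and 800 on every array. The part of these shifts in the results below was not tested. In such bulk RNA, fewer cells of a type and less RNA per cell cannot be told apart.

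Wnt proteins are secreted lipid-modified signals that bind Frizzled receptors. With Lrp5 or Lrp6 as co-receptor they stabilise β-catenin, which acts with Tcf and Lef factors on genes such as Axin2; ligands such as Wnt5a act mainly through routes that do not use β-catenin. Sfrp proteins and Wif1 bind Wnts outside the cell, and most Dkk proteins bind Lrp5 and Lrp6. In skin, signals of this family direct hair follicle formation and dermal fibroblast behaviour. Several antagonists are known for promoter methylation in tumours, and Sfrp1, Sfrp2, Sfrp4, Sfrp5, Dkk1, Dkk2, Dkk3 and Wif1 are taken here as that class.

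Promoter letters are shown because the drug removes DNA methylation, which in mammals lies mostly on cytosines in CpG pairs. RefSeq windows of the GRCm38.p6 build matched 28 of the 42 members, 3 of them with several windows, of which the first listed was used. Each window is the 250 bases before a listed transcript start, written 5′ to 3′ on the gene's own strand, with CpG pairs in capitals. For Wif1 and Fzd1 that start is the gene's outer 5′ end. For Dkk2, Sfrp2 and some other matched members, Wnt11 among them, it is not. Shown are 3 antagonists of that class and Fzd1, a receptor whose signal differed between groups.
Dkk2, chr3:132085042-132085291, plus strand: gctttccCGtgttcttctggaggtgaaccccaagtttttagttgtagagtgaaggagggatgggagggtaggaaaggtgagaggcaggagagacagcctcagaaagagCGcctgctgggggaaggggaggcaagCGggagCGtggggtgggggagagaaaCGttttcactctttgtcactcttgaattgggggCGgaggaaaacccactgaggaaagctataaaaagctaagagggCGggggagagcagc
Sfrp2, chr3:83766071-83766320, plus strand: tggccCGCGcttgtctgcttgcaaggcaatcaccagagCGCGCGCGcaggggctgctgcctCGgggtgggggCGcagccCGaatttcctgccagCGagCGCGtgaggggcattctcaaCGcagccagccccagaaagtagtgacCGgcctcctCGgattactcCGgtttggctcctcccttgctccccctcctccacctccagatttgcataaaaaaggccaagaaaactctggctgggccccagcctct
Wif1, chr10:121033754-121034003, plus strand: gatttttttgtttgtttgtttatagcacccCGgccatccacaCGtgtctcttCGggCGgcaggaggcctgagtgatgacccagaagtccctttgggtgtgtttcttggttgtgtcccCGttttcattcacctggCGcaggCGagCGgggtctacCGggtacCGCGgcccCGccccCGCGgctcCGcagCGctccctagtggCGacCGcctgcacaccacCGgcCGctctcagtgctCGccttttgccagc
Fzd1, chr5:4758217-4758466, minus strand: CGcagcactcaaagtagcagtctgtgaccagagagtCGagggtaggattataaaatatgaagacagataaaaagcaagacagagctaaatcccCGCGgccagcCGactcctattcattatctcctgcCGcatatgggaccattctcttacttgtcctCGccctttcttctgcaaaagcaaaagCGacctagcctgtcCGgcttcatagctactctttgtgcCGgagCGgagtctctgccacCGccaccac
The Dkk2 window holds 7 CpG pairs, the Sfrp2 window 16, the Wif1 window 21 and the Fzd1 window 12. Over the 5 antagonists of the class with a window the median was 13, ranging from 6 to 21. The other 23 members had a median of 25, ranging from 5 to 48, against a median of 6 over all 32851 windows. A Tcf/Lef core (the letters CTTTG followed by AA, AT, TA or TT, on either strand, overlaps allowed) was found in the windows of Dkk1, Fzd7 and Wnt11, 3 of 28 or 10.7%, against 14.8% of all windows. A match of letters is a description, and methylation at these windows was not analysed here.

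In GFP-positive cells the antagonists Sfrp1 and Dkk2 and the receptors Fzd1 and Fzd2 stood lower than in control, and Fzd6 and Wnt5a stood higher. Sfrp1, Fzd1 and Fzd2 also stood lower in GFP-negative cells. None of these differences passed limma's test with Benjamini-Hochberg adjustment as planned, which called 0 of 30 members at adjusted p under 0.05 in each comparison. That test called 0.122% of the 27022 probe sets tested between GFP-positive and control cells, 0.0296% between GFP-negative and control cells and 0% between the treated groups. At an unadjusted p under 0.05 it counted 7 members in GFP-positive cells (23.3%, against 7.04% of all probe sets tested), 4 in GFP-negative cells (13.3% against 5.07%), and 0 between the treated groups, where 0.625% of probe sets passed.

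With the replicate number as a block in the same model, which takes out what the arrays of one number share, 6 of 30 members were called between GFP-positive and control cells, 4 lower and 2 higher. That is 20% of the members tested, against 6.21% of all probe sets tested (3.06% lower and 3.15% higher). Between GFP-negative and control cells 3 members were called, all lower, or 10% against 3.57% (1.68% lower and 1.9% higher). Between the treated groups it called 0 members and 0% of probe sets; 1 member, Fzd6, had an unadjusted p under 0.05, where 5.75% of probe sets did. The blocked calls rest on a variance trend across probe sets: without that trend the block called 0 members in each comparison, and only 8 probe sets in all between GFP-positive and control cells. Both comparisons with control use the same control arrays, so their values are not independent of each other. In the sentences below, fell and rose are used only where the blocked test passed. Each ± is the standard error (SE) of the fit without the block, also where a blocked p-value stands beside it. For Sfrp1 in GFP-positive cells, for instance, the SE was 0.82 without the block and 0.27 with it.

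Sfrp1, which binds Wnt ligands outside the cell, had signals of 4767.2 and 1419.9 in control replicates 1 and 2. In GFP-negative cells it read 997.5 and 167.7, and in GFP-positive cells 574.6 and 266.2. All 4 treated arrays lay below both control arrays, and the replicate 2 array was the lower one in every group. On the log2 scale with an offset of 30.6, the difference from control was -2.64 ± 0.82 (SE, n = 2 arrays a group) in GFP-positive cells, with -2.99 within replicate 1 and -2.29 within replicate 2. Sfrp1 fell in the blocked test (limma adjusted p = 0.000211, against 0.462 without the block and 0.107 with the block and no trend). In GFP-negative cells the difference was -2.55 ± 0.82, with -2.22 and -2.87 within the replicate numbers, and Sfrp1 fell there too (limma adjusted p = 0.000394 with the block, 0.693 without it and 0.161 with the block and no trend). Leaving out any 1 array kept Sfrp1 called with the block in 6 of 6 fits of both comparisons. Its size was less stable: without the block, leaving out 1 array gave -3.50 to -1.77 in GFP-positive and -3.73 to -1.36 in GFP-negative cells, where it was -1.68 without control replicate 1 and -1.36 without GFP-negative replicate 2.

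The gene has 5 probe sets, and all were lower in treated cells. Their differences ran from -3.52 to -1.38 in GFP-positive and from -3.16 to -1.57 in GFP-negative cells, and each passed the blocked limma test in both comparisons. The smallest differences came from a probe set whose probes may also match other transcripts (log2 -1.38 and -1.57, limma adjusted p = 0.0434 and 0.0354 with the block). Sfrp1 lies on chromosome 8.

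**Figure D1:**
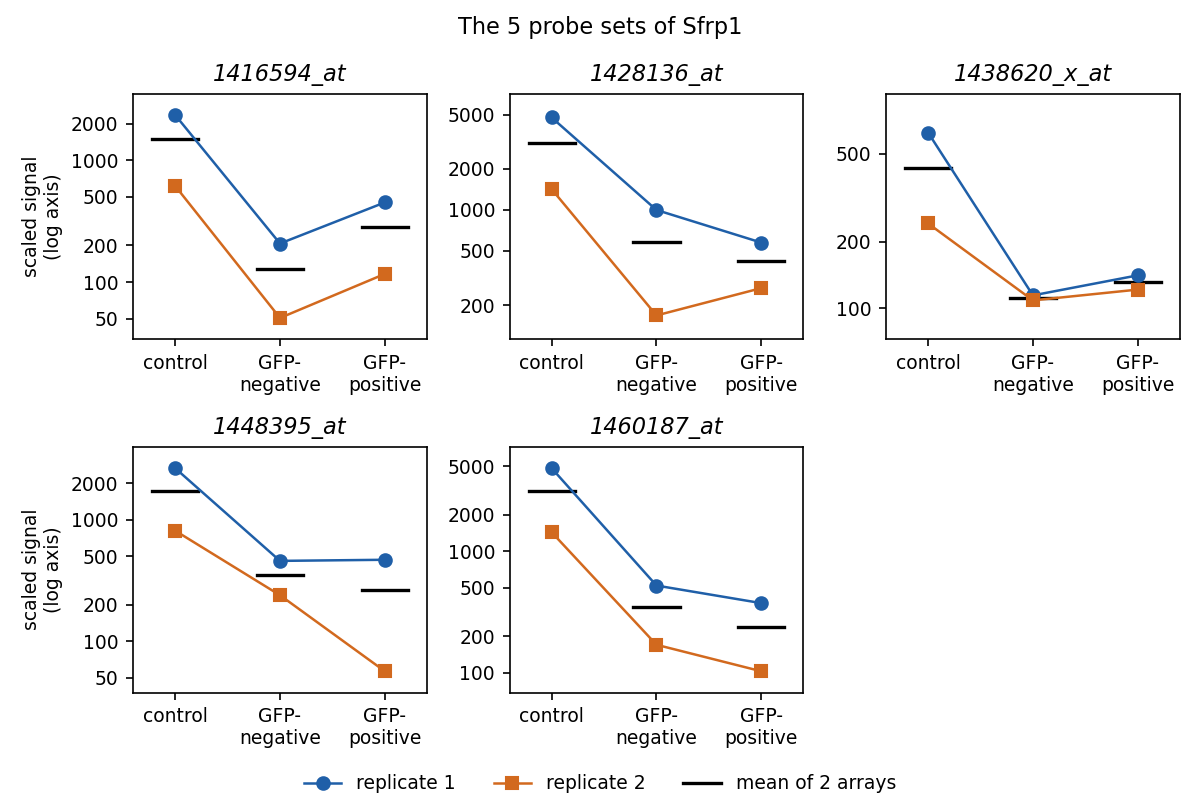
Scaled signal (vertical log axis) at each of the 5 probe sets of Sfrp1 in control, GFP-negative and GFP-positive cells; circles are replicate 1, squares replicate 2, and bars the mean of 2 arrays. At every probe set both treated groups lie below control within each replicate number.

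Dkk2, an antagonist of the Lrp co-receptors, read 904.8 and 382.2 in control, 410.2 and 184.6 in GFP-negative and 308.9 and 229.6 in GFP-positive cells. Both GFP-positive arrays were below both controls, while GFP-negative replicate 1 was above control replicate 2. Dkk2 fell in GFP-positive cells with the block (log2 -1.06 ± 0.49; limma adjusted p = 0.0333, against 0.755 without the block and 0.203 with the block and no trend), with -1.46 and -0.67 within the replicate numbers. The call was lost without control replicate 1 (-0.83, adjusted p = 0.162) and without GFP-positive replicate 1 (-0.70, adjusted p = 0.266). Without the block, the difference was -0.47 without control replicate 1 and -1.65 without control replicate 2. In GFP-negative cells the difference was -1.01 ± 0.49 and missed the threshold with the block (limma adjusted p = 0.0576). It passed in 3 of 6 fits that left out an array, namely without control replicate 2 and without each GFP-positive array, with a lowest adjusted p of 0.0384. Without the block, leaving out 1 array gave -1.60 to -0.42, the extremes being without control replicate 2 and without control replicate 1; it was -1.53 without GFP-negative replicate 1 and -0.50 without GFP-negative replicate 2.

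Dkk3, a Dkk relative with weaker ties to Lrp receptors, read 1683.9 and 1551.5 in control, 1319.6 and 1152.9 in GFP-negative and 1444.1 and 1014.3 in GFP-positive cells. The groups did not overlap, but the differences of -0.38 ± 0.25 and -0.41 ± 0.25 passed no test at this probe set (limma adjusted p = 0.276 and 0.182 with the block). A second tested Dkk3 probe set read 1263.9 and 894.7 in control, 897.5 and 661.1 in GFP-negative and 798.0 and 528.4 in GFP-positive cells. It fell with the block in GFP-positive cells (log2 -0.69, limma adjusted p = 0.0397) and did not pass in GFP-negative cells (-0.45, limma adjusted p = 0.218). Sfrp2 read 270.8 and 93.7 in control, 107.5 and 22.6 in GFP-negative and 133.8 and 45.5 in GFP-positive cells. It was lower than control within both numbers, by -0.87 and -0.71 in GFP-positive and -1.13 and -1.22 in GFP-negative cells, without passing the blocked test (limma adjusted p = 0.320 and 0.175). The arrays of different number overlapped between groups.

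Sfrp4 read 595.0 and 216.4 in control, 533.8 and 166.1 in GFP-negative and 362.9 and 155.4 in GFP-positive cells; its spread between replicate numbers was wider than the difference between groups (-0.54 ± 0.65 in GFP-positive and -0.24 ± 0.65 in GFP-negative cells). Sfrp5 ran the other way, with 116.8 and 20.1 in control, 164.0 and 91.9 in GFP-negative and 195.2 and 61.3 in GFP-positive cells. Its differences of 0.74 ± 0.73 and 0.84 ± 0.73 passed no test either (limma adjusted p = 0.379 in both comparisons with the block). With control replicate 2 left out, the first was -0.03. A second Sfrp5 probe set, too dim to test, read 48.8 and 50.7 in control and 116.9 and 81.4 in GFP-negative cells. In GFP-positive cells it read 42.0 and 27.7, below both controls, so the probe sets disagreed there. The other antagonists were dim and not tested: Dkk1 read 12.9 to 108.4, Dkk4 6.4 to 48.4 and Wif1 0.8 to 20.8 over the 6 arrays. Wif1, with the most CpG pairs of the 4 windows printed, thus stayed under the level needed for a test on every array, treated ones included.

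**Figure D2:**
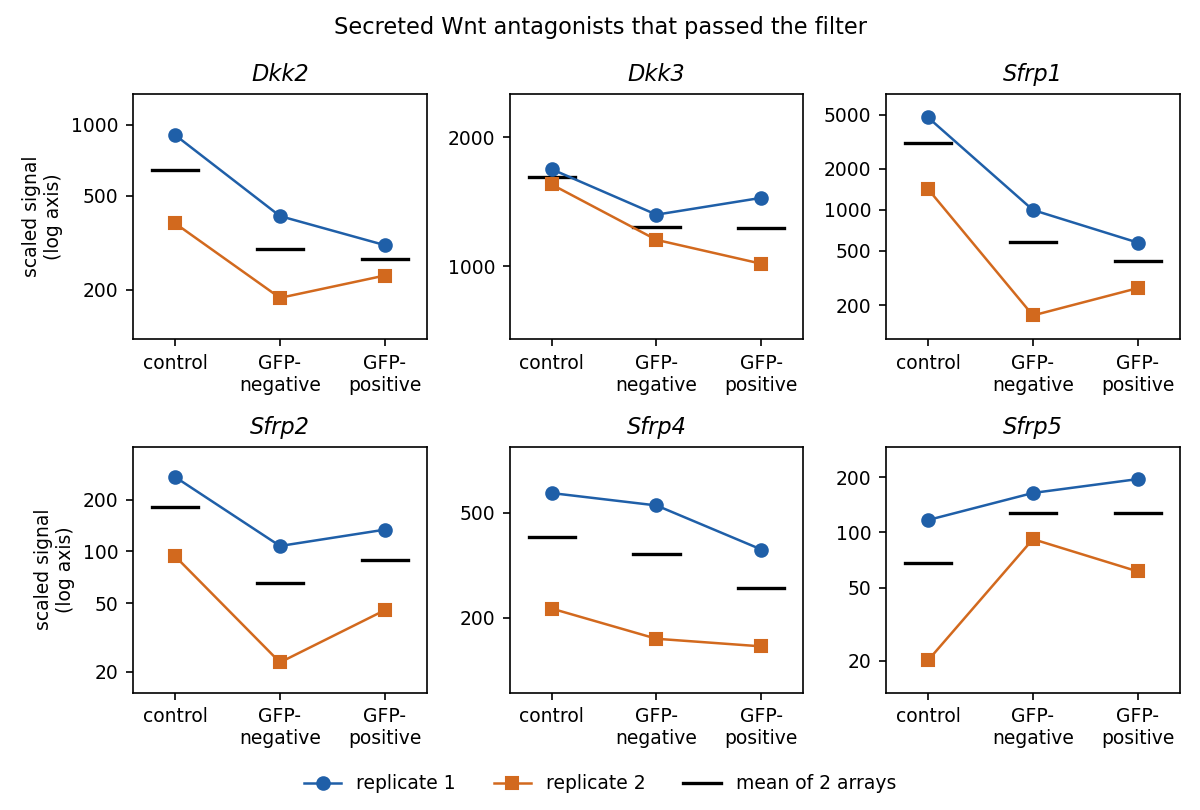
Scaled signal (vertical log axis) of the secreted antagonists in control, GFP-negative and GFP-positive cells; circles are replicate 1, squares replicate 2, and bars the mean of 2 arrays. Sfrp1 spans 4767.2 in control replicate 1 to 167.7 in GFP-negative replicate 2, while Sfrp5 is the tested antagonist with higher treated values within both replicate numbers.

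Among the receptors, Fzd1 was lower in every treated array. Its signals were 2703.4 and 2460.0 in control, 1284.3 and 1069.8 in GFP-negative and 1091.5 and 1242.8 in GFP-positive cells. The highest treated value, 1284.3, was well under the lower control value. Fzd1 fell with the block in GFP-positive cells (log2 -1.13 ± 0.22; limma adjusted p = 0.00214, 0.175 without the block and 0.146 with the block and no trend) and in GFP-negative cells (-1.12 ± 0.22; 0.00321, 0.280 and 0.197). The values within replicate numbers were -1.28 and -0.97, and -1.06 and -1.18. Both Fzd1 probe sets fell in both comparisons with the block, and Fzd1 was called in 6 of 6 fits that left out an array.

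Fzd2 read 5076.3 and 3455.9 in control, 2499.5 and 1960.7 in GFP-negative and 2209.3 and 1610.9 in GFP-positive cells. It fell with the block in GFP-positive cells (log2 -1.14 ± 0.28; limma adjusted p = 0.000635, 0.298 without the block and 0.129 with the block and no trend). In GFP-negative cells it also fell (-0.91 ± 0.28; 0.00408, 0.640 and 0.220), except in the fit without GFP-negative replicate 1 (-0.83, adjusted p = 0.0503). All 3 Fzd2 probe sets fell in both comparisons with the block.

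Fzd6, a receptor known mainly for planar cell polarity and hair orientation, went the other way. Its signals were 485.7 and 612.0 in control, 712.8 and 826.3 in GFP-negative and 1006.0 and 1210.2 in GFP-positive cells, so the groups stood in order with no overlap. Fzd6 rose with the block in GFP-positive cells (log2 0.98 ± 0.26; limma adjusted p = 0.00747, 0.341 without the block and 0.145 with the block and no trend), by 1.01 and 0.95 within the replicate numbers. That call was lost without GFP-positive replicate 1 (0.98, adjusted p = 0.0588) or replicate 2 (0.98, adjusted p = 0.0886). The difference in GFP-negative cells, 0.47 ± 0.26, did not pass (limma adjusted p = 0.198 with the block). A second tested Fzd6 probe set stood 0.75 higher in GFP-positive and 0.46 higher in GFP-negative cells without passing, and the third was too dim to test. The mean of the 3 stood 0.41 higher in GFP-positive cells.

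Fzd8 read 384.2 and 325.6 in control, 191.5 and 238.6 in GFP-negative and 179.7 and 181.1 in GFP-positive cells, without overlap. Its differences of -0.87 ± 0.33 and -0.65 ± 0.33 missed the threshold (limma adjusted p = 0.0892 and 0.258 with the block). Lrp6, the co-receptor, read 1034.5 and 762.6 in control, 1038.2 and 592.5 in GFP-negative and 719.4 and 546.2 in GFP-positive cells. Both GFP-positive arrays and GFP-negative replicate 2 lay below both controls, and the GFP-positive difference passed no test (-0.48 ± 0.33; limma adjusted p = 0.167 with the block).

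Fzd4 read 311.3 and 239.0 in control, 76.2 and 174.1 in GFP-negative and 199.4 and 216.7 in GFP-positive cells. All treated arrays were lower, with the lowest value in GFP-negative replicate 1, but the difference passed no test (-1.04 ± 0.43 in GFP-negative cells; limma adjusted p = 0.154 with the block). A second tested Fzd4 probe set was at 0.05 in that comparison, so the probe sets disagreed. Fzd5 read 778.5 and 690.7 in control, 543.1 and 615.9 in GFP-negative and 620.9 and 520.5 in GFP-positive cells, again without overlap; its other probe set did not show this, with 25.6 and 152.9 in control and 97.5 to 203.8 in treated cells.

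The remaining tested receptors overlapped between control and treated arrays. Fzd7 lay between 1434.6 and 2327.6, though its other probe set read 249.0 and 174.6 in control and 91 to 121.7 in treated cells without passing a test. Fzd3 lay between 244.8 and 382.0, but its other tested probe sets disagreed without passing the blocked test. A dimmer Fzd3 probe set read 163.3 and 119.3 in control and 65.3 to 115.8 in treated cells. Another read 274.6 and 165.1 in control and 334.5 and 298.8 in GFP-positive cells. The dim Fzd9 and Fzd10 ran from 10.8 to 153.1 and from 52.7 to 258.2, each lowest in control replicate 2. Lrp5 was below the filter, at 5.9 to 100.8.

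**Figure D3:**
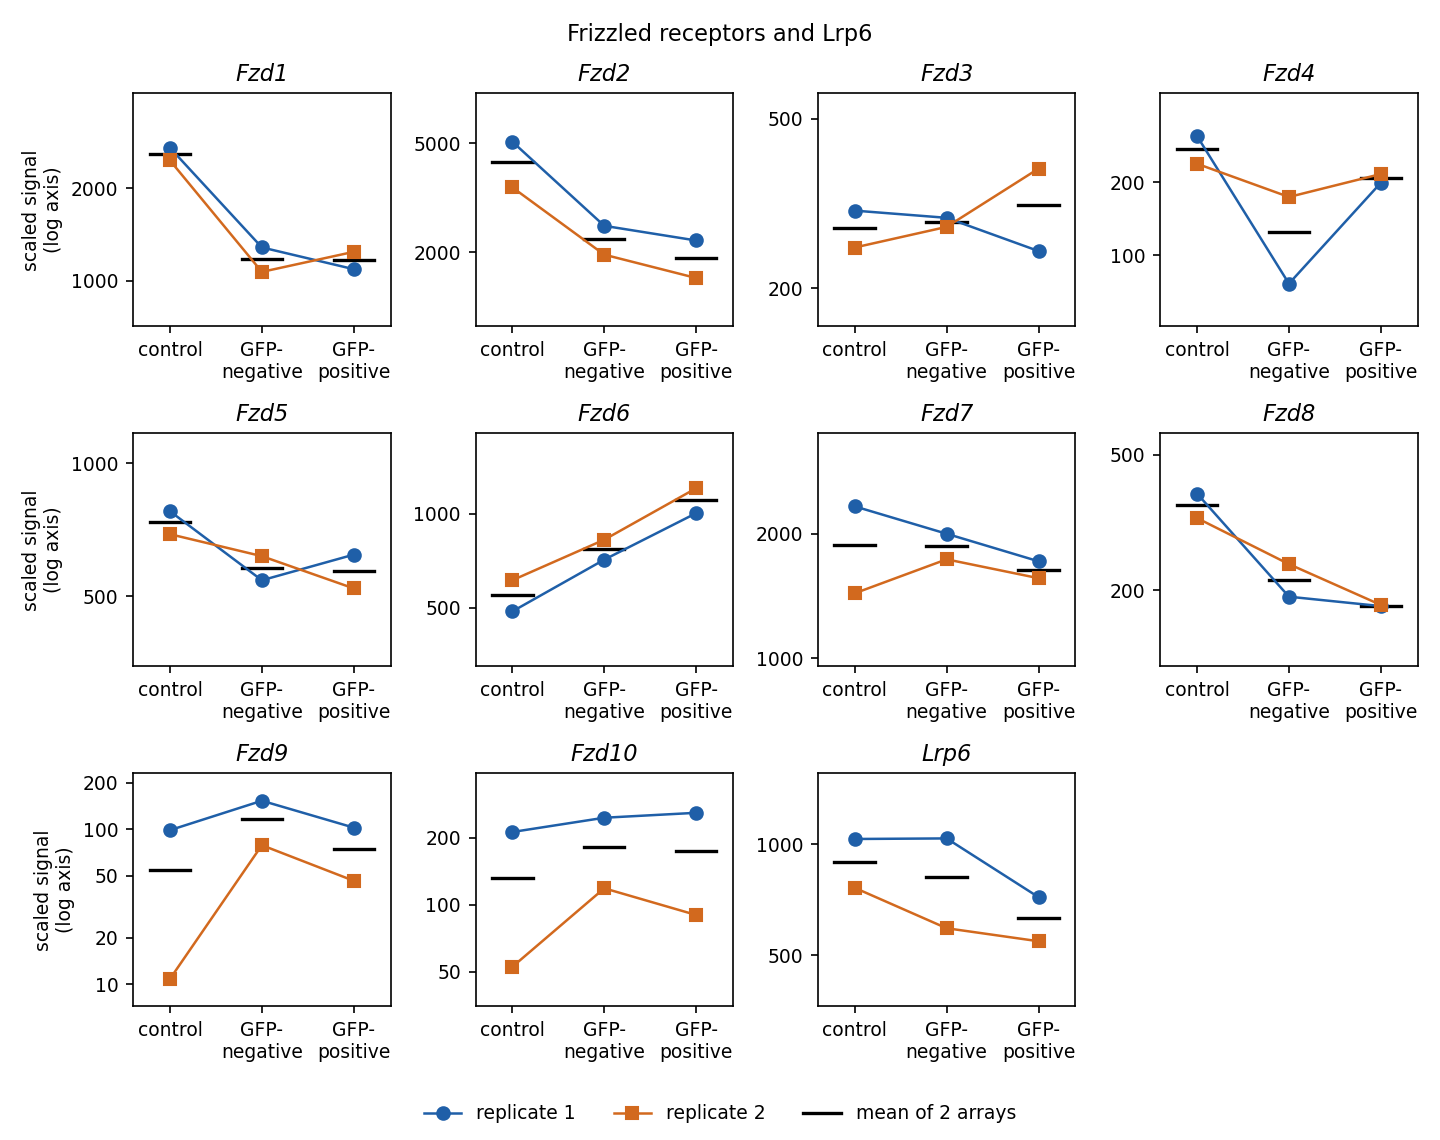
Scaled signal (vertical log axis) of the Frizzled and Lrp receptors in control, GFP-negative and GFP-positive cells; circles are replicate 1, squares replicate 2, and bars the mean of 2 arrays. Fzd1 and Fzd2 drop from control to both treated groups, and Fzd6 climbs from 485.7 and 612.0 in control to 1006.0 and 1210.2 in GFP-positive cells.

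Of the ligands, Wnt5a was the one called. Its signals were 1111.3 and 1446.7 in control, 1825.6 and 2010.6 in GFP-negative and 1775.7 and 2472.8 in GFP-positive cells, with all treated arrays above both controls. Wnt5a rose with the block in GFP-positive cells (log2 0.71 ± 0.26; limma adjusted p = 0.0194, 0.567 without the block and 0.216 with the block and no trend), by 0.66 and 0.76 within the replicate numbers. The call was lost without GFP-positive replicate 1 (0.82, adjusted p = 0.0598) or replicate 2 (0.60, adjusted p = 0.228). In GFP-negative cells the difference of 0.58 ± 0.26 missed the threshold with the block (limma adjusted p = 0.0663). Of the other tested Wnt5a probe sets, 1 rose with the block in both comparisons (0.61 and 0.83; limma adjusted p = 0.0381 and 0.0128), so in GFP-negative cells the call depended on the probe set. The other was higher by 0.79 and 0.67 without passing, and the one too dim to test was not higher. The mean of all Wnt5a probe sets stood 0.36 higher in GFP-positive cells.

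Wnt11, another ligand known for signals that do not use β-catenin, read 279.6 and 117.9 in control, 354.4 and 335.4 in GFP-negative and 335.8 and 443.3 in GFP-positive cells. Treated arrays were all above control, but most of the gap came from control replicate 2: within replicate 1 the GFP-positive difference was 0.24, and within replicate 2 it was 1.67. The fitted differences of 0.96 ± 0.41 and 0.81 ± 0.41 passed no test with all arrays (limma adjusted p = 0.117 and 0.248 with the block). Without control replicate 1 they were 1.56 and 1.41 and passed with the block (limma adjusted p = 0.00573 and 0.0165), and without control replicate 2 they were 0.35 and 0.20.

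Wnt2, Wnt6 and Wnt10a each separated from control in a single treated group. Wnt2 read 94.9 and 69.9 in control, 125.0 and 254.8 in GFP-negative and 71.5 and 202.9 in GFP-positive cells. Wnt10a read 92.5 and 94.2 in control, 144.9 and 174.1 in GFP-negative and 118.7 and 85.1 in GFP-positive cells. Wnt6 read 178.2 and 96.8 in control, 285.8 and 75 in GFP-negative and 206.1 and 195.9 in GFP-positive cells. These are dim probe sets, and none of the 3 genes was called.

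The other tested ligands overlapped between control and treated arrays. Wnt4 had its highest and lowest signals in control, 538.2 and 211.9, with 333.6 to 374.0 in treated cells. Wnt9a lay between 274.1 and 489.4, Wnt7a between 35.5 and 364.7 and Wnt7b between 102.9 and 242.7. Wnt2b ran from 16.9 to 149.8 and Wnt5b from 11.7 to 191.8, each lowest in a control array.

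Axin2, a feedback target of β-catenin signalling, and Lef1, one of its nuclear partners, were dim and overlapped between groups. Axin2 read 113.6 and 81.6 in control, 72.1 and 105.6 in GFP-negative and 120.7 and 51.5 in GFP-positive cells. Lef1 read 129.8 and 62.9 in control, 149.7 and 63.7 in GFP-negative and 112.4 and 125.7 in GFP-positive cells. A small difference in either was not detectable at these levels.

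The 12 members below the filter were Wnt1, Wnt3, Wnt3a, Wnt8a, Wnt8b, Wnt9b, Wnt10b, Wnt16, Dkk1, Dkk4, Wif1 and Lrp5. Their signals ran from 0.8 to 204.1, the highest being Wnt3a in GFP-positive replicate 1, which read 17.8 in replicate 2. At least 1 array exceeded the filter level in 8 of them, and in 2 all treated arrays were above both controls.

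**Figure D4:**
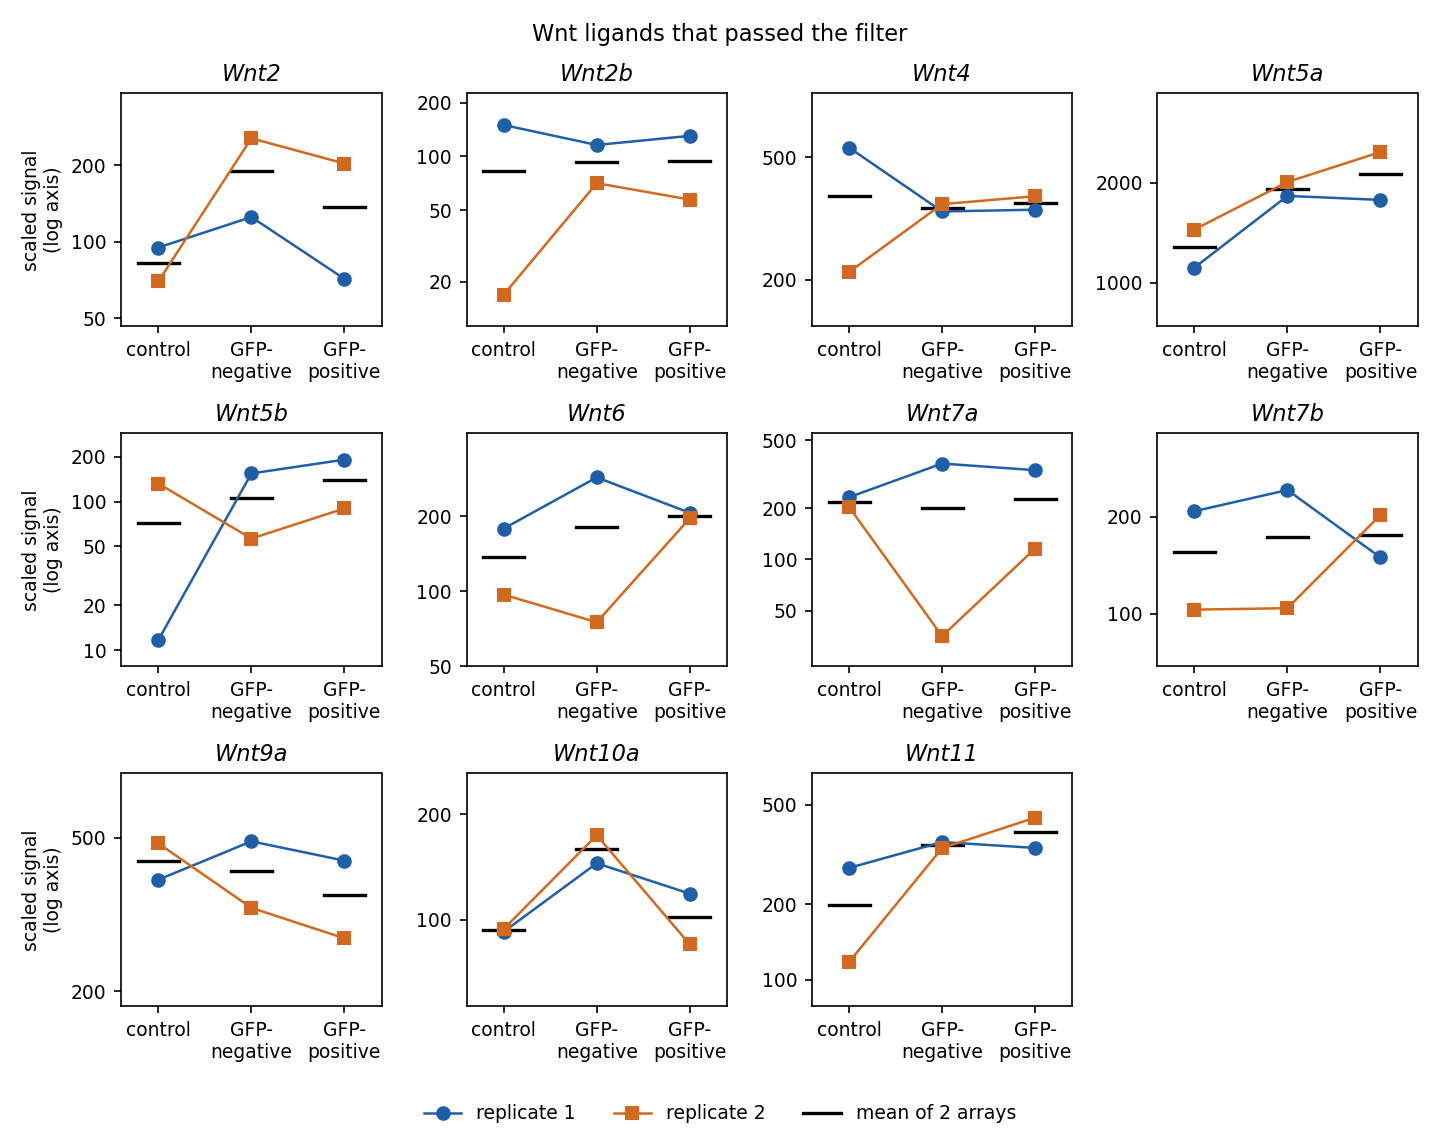
Scaled signal (vertical log axis) of the tested Wnt ligands in control, GFP-negative and GFP-positive cells; circles are replicate 1, squares replicate 2, and bars the mean of 2 arrays. Wnt5a and Wnt11 are the ligands whose 4 treated arrays all lie above both control arrays.

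Groups did not overlap for 13 of the 30 tested members between GFP-positive and control cells, 9 of them lower and 4 higher, or 43.3% against 32.2% of all probe sets tested. The lower share was 30% against 14.9%, and the higher share 13.3% against 17.3%. The lower ones were the antagonists Sfrp1, Dkk2 and Dkk3 and the receptors Fzd1, Fzd2, Fzd4, Fzd5, Fzd8 and Lrp6. Between GFP-negative and control cells 12 members did not overlap, 7 lower and 5 higher, or 40% against 28.6% (23.3% against 13.5% lower, 16.7% against 15.1% higher).

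By role, the ligands and receptors differed in their medians over all measured members. Over the 19 ligands the median difference between GFP-positive and control cells was 0.28 within replicate 1 and 0.18 within replicate 2, and over the 12 receptors -0.37 and -0.26. In GFP-negative cells the ligand medians were 0.31 and 0.31 and the receptor medians -0.13 and -0.25. All probe sets tested had medians of 0.03 and 0.05, and of 0.03 and 0.04, in these comparisons. The role medians, unlike these, include members below the filter: 11 of the 19 ligands and 11 of the 12 receptors passed it. Both replicate 2 ligand medians are the values of Wnt3a, which did not pass. On the replicate 2 arrays it read 12.2 in control, 22.6 in GFP-negative and 17.8 in GFP-positive cells.

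The 8 antagonists often methylated in tumours stood lower in their median than the other 34 members. Between GFP-positive and control cells their median was -0.45 within replicate 1 and -0.50 within replicate 2, and that of the other members 0.11 and 0.15. The antagonist median was thus 0.57 and 0.65 lower on the log2 scale (differences of -0.57 and -0.65). In GFP-negative cells the medians were -0.72 and -0.37 against 0.18 and 0.15, giving differences of -0.89 and -0.52. Within each replicate number 6 of the 8 antagonists were below 0 in both comparisons, against 14 or 15 of the other 34 and 46.2% to 47.6% of all probe sets tested. The receptors among those 34 also stood lower. In GFP-positive cells 8 and 7 of 12 were below 0, with medians of -0.37 and -0.26. The ligands among them had medians above 0 in both comparisons. These are descriptions of genes and not tests, and of the 8, Dkk1 and Wif1 were too dim to be tested. Higher antagonist signal after the drug was seen within both numbers only for Sfrp5 among those tested, at its brightest probe set.

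**Figure D5:**
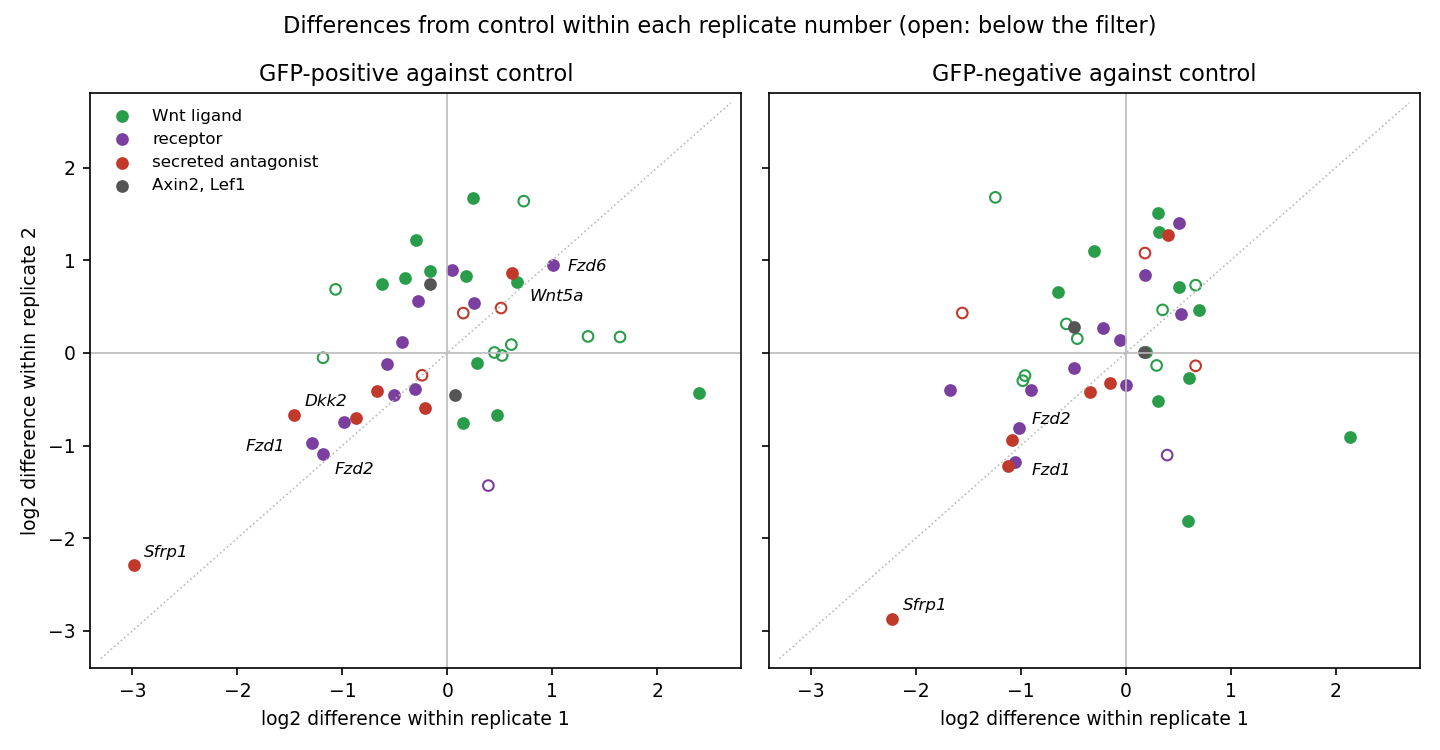
Log2 difference from control within replicate 1 (horizontal axis) and within replicate 2 (vertical axis) for all 42 members, GFP-positive cells at left and GFP-negative cells at right; colours mark the role, open circles the 12 members below the filter, and named points passed the blocked test. Sfrp1 lies far from the others at -2.99 and -2.29 in GFP-positive cells, and most open circles lie away from the dotted line of equal differences.

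GFP-positive and GFP-negative cells differed little in these genes. Groups did not overlap for 5 of 30 members, or 16.7% against 20.6% of all probe sets tested: Fzd4 and Fzd6 were higher in GFP-positive cells (6.67% against 10.6%) and Fzd7, Fzd8 and Wnt10a lower (10% against 10%). Fzd6 had a difference of 0.51 ± 0.26, with 0.48 and 0.53 within the replicate numbers (limma adjusted p = 0.823 with the block). Fzd4 was at 0.69 ± 0.43, Fzd7 at -0.18 ± 0.27, Fzd8 at -0.21 ± 0.33 and Wnt10a at -0.53 ± 0.46. Sfrp1 stood at -0.76 within replicate 1 and 0.58 within replicate 2, so its order between the treated groups depended on the replicate. The median antagonist difference exceeded that of the other members by 0.04 and 0.22.

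Other components of the pathway were read from a list of 56 genes, of which 55 had a probe set and 45 were tested. The planned limma test called 0 of the 45 in each comparison; 8 had an unadjusted p under 0.05 between GFP-positive and control cells and 4 between GFP-negative and control cells, all lower (17.8% and 8.89%, against 3.43% and 2.31% of all probe sets lower at that p). With the block 9 fell and 0 rose in GFP-positive cells (20% lower, against 3.06% of all probe sets lower and 3.15% higher), and 4 fell and 0 rose in GFP-negative cells (8.89% lower, against 1.68% lower and 1.9% higher). The list's medians were -0.18 and -0.16 within the replicate numbers in GFP-positive cells, and -0.11 and -0.10 in GFP-negative cells. The 4 genes of smallest p were the same in both comparisons.

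Ror1, a receptor for Wnt5a, read 769.7 and 877.5 in control, 212.8 and 234.6 in GFP-negative and 135.9 and 231.5 in GFP-positive cells. It fell with the block in GFP-positive and GFP-negative cells (log2 -2.03 ± 0.33 and -1.75 ± 0.33; limma adjusted p = 0.000635 and 0.00256, or 0.102 and 0.253 without the block). With the mean of its probe sets the GFP-negative difference of Ror1 was -1.03. While Wnt5a stood higher in all treated arrays, the signal of this receptor stood lower in all of them. Ror2, tested on the same list, did not share this fall. It stood at -0.13 in GFP-positive and -0.24 in GFP-negative cells (limma adjusted p = 0.793 and 0.650 with the block). Rspo3, a secreted enhancer of Wnt signalling, read 382.4 and 321.1 in control, 55.6 and 70.1 in GFP-negative and 37.7 and 57.4 in GFP-positive cells, and fell with the block (-2.30 ± 0.47 and -2.03 ± 0.47; limma adjusted p = 0.00567 and 0.0154). Its treated signals lay near or under the filter level, which it passed through its control arrays, so the size of its difference rests on dim values: with 4 times the offset it was -1.48 and -1.35, and with the mean of its probe sets -1.13 and -0.68. The GFP-negative call of Rspo3 was lost without control replicate 1 (-1.77, adjusted p = 0.0952), GFP-negative replicate 1 (-1.95, 0.0704) or GFP-negative replicate 2 (-2.11, 0.0668).

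Gpc4, a cell surface proteoglycan encoded on the X chromosome, read 10265.5 and 13003.4 in control, 6782.0 and 8156.2 in GFP-negative and 5801.5 and 5261.2 in GFP-positive cells. It fell with the block (-1.06 ± 0.22 and -0.63 ± 0.22; limma adjusted p = 0.00127 and 0.0338), the second not without control replicate 2 (-0.49, adjusted p = 0.114) or GFP-negative replicate 1 (-0.55, 0.242) or 2 (-0.72, 0.0884). Prickle1, a planar polarity protein, read 557.2 and 703.6 in control, 209.3 and 304.7 in GFP-negative and 218.6 and 250.3 in GFP-positive cells. It fell with the block at this probe set (-1.31 ± 0.32 and -1.21 ± 0.32; limma adjusted p = 0.00715 and 0.0150), but the mean of its probe sets stood at -0.09 and 0.15. Its first call was lost without GFP-positive replicate 2 (-1.20, adjusted p = 0.104), and its second without control replicate 2 (-1.22, 0.0552) or GFP-negative replicate 1 (-1.09, 0.121) or 2 (-1.33, 0.0516). Without the trend the block called none of these 4 genes.

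Genes known as Wnt targets moved both ways. Of 20 listed, 19 had a probe set and 16 were tested; the planned limma test called Fosl1 alone, in GFP-positive cells, and 0 in the other comparisons, with 9 at an unadjusted p under 0.05 in GFP-positive cells (56.2%, against 7.04% of all probe sets tested), 7 in GFP-negative cells (43.8% against 5.07%) and 0 between the treated groups (0.625% of all probe sets). With the block 4 rose and 5 fell in GFP-positive cells (25% against 3.15% of all probe sets, and 31.2% against 3.06%). In GFP-negative cells 3 rose and 4 fell (18.8% against 1.9%, and 25% against 1.68%). The list's medians were -0.09 and -0.21, and -0.03 and -0.24, within the replicate numbers. The members and both lists were chosen with earlier results of these data known, so the shares describe the lists and do not test them. Each listed gene counts at its brightest probe set, while the shares beside it cover all probe sets tested. Several of these genes have other known inputs, Fosl1 and Cd44 among them.

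Fosl1, an AP-1 subunit, read 304.3 and 444.0 in control, 1490.8 and 1564.8 in GFP-negative and 1532.0 and 1952.3 in GFP-positive cells. It rose in GFP-positive cells by 2.14 ± 0.27 (limma adjusted p = 0.0456, or 5.31e-05 with the block). Among other settings, the call was lost with the block and no trend (limma adjusted p = 0.0838), without trend alone (0.341) and with median centring (0.249). Without the block the call was also lost whichever array was left out, and with the block it was kept. Leaving out arrays gave differences of 1.89 to 2.39. In GFP-negative cells the difference was 1.97 ± 0.27 (limma adjusted p = 0.0993, or 0.000144 with the block). Cd44, the hyaluronan receptor, read 8060.5 and 8537.5 in control, 13800.1 and 12418.5 in GFP-negative and 12717.5 and 12945.8 in GFP-positive cells. It rose with the block (0.63 ± 0.20 and 0.66 ± 0.20; limma adjusted p = 0.0116 and 0.0128), though the call was lost without GFP-positive replicate 1 (0.66, adjusted p = 0.0902) or 2 (0.60, 0.176) in the first comparison and without GFP-negative replicate 1 (0.55, 0.171) in the second. With the mean of its probe sets Cd44 stood at 0.35 and 0.27, and with the block and no trend neither call passed (limma adjusted p = 0.237 and 0.285).

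Lgr5, an R-spondin receptor, read 1619.6 and 300.1 in control, 177.7 and 83.0 in GFP-negative and 166.2 and 49.5 in GFP-positive cells. It fell with the block in both comparisons (-2.56 ± 0.78 and -2.26 ± 0.78, limma adjusted p = 0.00162 and 0.00497). Its ligand Rspo3 fell as well, but passed the filter through its control arrays, with treated signals near or under that level. Lgr4, Lgr6 and Rspo2 did not fall. Ccn5, a matricellular protein, read 8626.2 and 8286.9 in control, 3628.1 and 1844.6 in GFP-negative and 2811.8 and 1013.3 in GFP-positive cells, and fell with the block (-2.30 ± 0.48 and -1.70 ± 0.48; limma adjusted p = 0.000326 and 0.00344). Both stayed called with the block whichever array was left out, and neither was called with the block and no trend. Without the block, Lgr5 was at -1.40 and -1.10 without control replicate 1, and at -3.42 in GFP-negative cells without control replicate 2; with the mean of its probe sets it was at -1.13 in GFP-positive cells. With the block, Ccn5 in GFP-negative cells was at -1.12 without control replicate 2. Axin2, which is not on this list, overlapped between all groups. Of the other tested R-spondin and Lgr genes, Lgr6 read 241.7 and 42.2 in control and 262.8 to 309.4 in treated cells. It stood 1.25 and 1.07 higher without passing the blocked test (limma adjusted p = 0.118 and 0.238). Lgr4 stood at -0.50 and -0.32 and Rspo2 at 0.31 and -0.17, neither of them called.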

How the data were processed

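Total RNA of the 6 samples was hybridised to Affymetrix mouse arrays. The authors deposited intensity values made with MAS5, per the submitters' processing notes; the array scaling is not given in the sources used here. Of 45101 rows, 64 control probe sets were left out; 34945 probe sets had 1 gene symbol in the platform annotation, 932 several and 9160 none. Each array was scaled so that its mean, with 2% trimmed at each end, was 500. An offset of 30.6 was added before log2, which shrinks differences of dim genes. Probe sets with a mean signal under the 40th percentile (67.7) were not tested, leaving 27022.

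limma 3.58.1 in R 4.3.3 was fitted to all 6 arrays with a mean-variance trend (two-sided, Benjamini-Hochberg over all probe sets tested, called at adjusted p under 0.05). The planned fit had no block. Same-numbered arrays deviated together from their group means (correlations of 0.51, 0.51 and 0.56 for the 3 pairs of groups), so the fit with the replicate number as a block is printed where it changes a call; the pairing comes from these values and the shared numbers, and the labels do not say what a number stands for. The fit was also run on simulated data whose noise took the spread left by the blocked fit. All of those runs used the variance trend, so they cannot say how far the calls depend on it.

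The members and gene lists were chosen with earlier results of these data known. Every tested member is named, and of the other lists the 4 genes of smallest p in each comparison with control; others named were chosen after their values were seen. Alternatives covered scaling, offset, filter, trend, block, samples, probe sets, threshold and leaving out arrays.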

Additional observations from a re-analysis of the deposited data

How the results depend on the processing

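Over all alternatives without the block, 0 members were called in each comparison, also at adjusted p under 0.1. The replicate block called 6 members in GFP-positive and 3 in GFP-negative cells, with quantile normalization added again 6 and 3, and 0 between the treated groups; without a trend it called 0 in each. The block without trend, the block leaving out each array, and leaving out both rescaled arrays were chosen after seeing the data. With the block and an array left out, the counts ran from 3 to 7 in GFP-positive cells (3 without GFP-positive replicate 1, 4 without its replicate 2) and from 2 to 4 in GFP-negative cells (2 without GFP-negative replicate 1). Over all probe sets, the planned fit called 33 in GFP-positive cells, the block 1679 and the fit without trend 0; in GFP-negative cells these were 8, 966 and 0. Quantile normalization gave 29 and 7, median centring 40 and 16, no filter 44 and 11, the stricter filter 24 and 3, 0.25 times the offset 30 and 3, 4 times the offset 34 and 6, only the groups compared 34 and 3, related-transcript probe set types left out 20 and 3, the mean of a gene's probe sets 12 and 5, a threshold of 0.1 78 and 25, and both rescaled arrays left out 62 and 49. Leaving out 1 array gave 0 to 35 and 0 to 6.

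The antagonists' median difference against the other members, averaged over both numbers, was -0.61 in GFP-positive cells. It was -0.71 with 0.25 times the offset, -0.41 with 4 times the offset, -0.72 with the mean of a gene's probe sets, -0.75 with the related-transcript types left out and -0.67 with the stricter filter. In GFP-negative cells it was -0.71 and lay between -0.92 and -0.47. Between the treated groups it was 0.13, but -0.036 with the mean of probe sets and -0.23 with the stricter filter.

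Signs turned for these differences, none of them called, except Prickle1 (called with the block). In GFP-negative cells Lrp6 was at 0.04 without control replicate 1, 0.22 without GFP-negative replicate 2 or both rescaled arrays, and 0.017 without GFP-negative replicate 2 with the block; leaving out an array gave -0.56 to 0.22. Sfrp4 there was at 0.43 without control replicate 1 and 0.52 without GFP-negative replicate 2 or both rescaled arrays (-0.999 to 0.52), and Prickle1 at 0.15 with the mean of its probe sets. In GFP-positive cells Sfrp4 was at 0.13 without control replicate 1 and 0.0015 without GFP-positive replicate 2 or both rescaled arrays (-1.21 to 0.13), Sfrp5 at -0.033 without control replicate 2 (-0.033 to 1.51) and Fzd4 at 0.084 without control replicate 1 with the block. Between the treated groups Fzd8 was at 0.18 with the mean of its probe sets. The cause was not tested. Of the 16 tested members with no fitted difference from control in the text, 13 changed sign under some alternative in GFP-negative and 16 in GFP-positive cells. Low signal on the replicate 2 arrays limits what can be said of dim members.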
